A study of Mus musculus with 4 samples.

Results

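The 9 enzymes described here are Asns, Got1, Glul, Glud1, Gpt2, Aldh18a1, Pycr1 and Oat, which make or break down asparagine, aspartate, glutamine, glutamate and proline, and Pck2, the mitochondrial enzyme that makes phosphoenolpyruvate. They were listed by name, and all 9 were found among the 55487 gene IDs of the deposited count table. The libraries came from group 2 innate lymphoid cells (ILC2s), tissue-resident lymphocytes that secrete type 2 cytokines, sorted from the mouse gut (labelled colon). All cells, controls included, were kept in culture with the alarmins IL-33 and IL-25 and the survival cytokines IL-7 and IL-2. The 2 control libraries came from such cells without the drug. The 2 FK866 libraries came from such cells exposed for 16 h to FK866, an inhibitor of NAMPT, the enzyme that salvages nicotinamide into NAD+. The labels give no genotype, strain or age, and do not say whether the controls received a vehicle. They also do not say whether the replicates of a group are separate animals or cultures. The p-values therefore measure the spread among 4 libraries, and that spread may be technical.

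Glutamate is the hub of this part of metabolism. Glutamate gives its nitrogen to oxaloacetate or pyruvate through transaminases, takes up ammonia to become glutamine, and is reduced through pyrroline-5-carboxylate to proline, each reduction using NADPH or NADH. Asparagine is made from aspartate with the amide nitrogen of glutamine. In mammalian cells several of these genes are known targets of ATF4, the transcription factor of the amino acid and integrated stress responses, which binds a composite CEBP-ATF element in target promoters.

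That element was looked for in the promoters because 3 of the 9 genes rose together in FK866. The letters TGATGNAA were searched on both strands in the 250 bases before the RefSeq start site (GRCm38.p6), where all 9 genes had an entry. Asns, Pck2, Got1 and Pycr1 held a match, and the other 5 did not. Stretches of 30 bases around the matches are shown 5′ to 3′ on the strand of the gene, with the match in capitals.
Asns: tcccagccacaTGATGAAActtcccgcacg
Pck2: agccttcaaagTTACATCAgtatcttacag
Got1: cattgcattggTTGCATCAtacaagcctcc
Pycr1: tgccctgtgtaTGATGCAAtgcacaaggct
The stretches are chr6:7693214-7693243 (minus strand), chr14:55540152-55540181 (plus strand), chr19:43524689-43524718 (minus strand) and chr11:120643833-120643862 (minus strand). In Pck2 and Got1 the match lies on the opposite strand, where it reads TGATGTAA and TGATGCAA. The match of Asns begins 23 bases before the RefSeq start and lies inside an exon of a GENCODE transcript that starts further upstream, while those of Pck2, Got1 and Pycr1 begin 103, 102 and 103 bases before it. The 250 bases before Gpt2, which also rose, are shown because they hold none of the motifs searched (chr8:85492326-85492575, plus strand).
Gpt2: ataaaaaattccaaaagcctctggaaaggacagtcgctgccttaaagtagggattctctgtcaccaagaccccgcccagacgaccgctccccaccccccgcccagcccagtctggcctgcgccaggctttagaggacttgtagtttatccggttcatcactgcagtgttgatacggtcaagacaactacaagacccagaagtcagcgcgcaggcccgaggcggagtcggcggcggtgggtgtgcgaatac
Of 32851 promoters in the RefSeq table, 3.45% held TGATGNAA. The E-box CACGTG, held by 6.02% of promoters, occurred in Aldh18a1, and the FOXO letters GTAAACA (3.17%) and the CRE letters TGACGTCA (1.55%) occurred in none of the 9. A match is a description of letters and not a measured binding site, and a part of these motifs in the rise was not tested. Both genes that rose with a match and genes that did not pass the test with a match are among the 4, and of all tested genes with a promoter entry 23 of 321 with TGATGNAA were called higher (7.2%), against 734 of 11830 without it (6.2%).

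Library totals ranged from 27617750 to 37841233 counts. FK866 replicate 2 stood apart with 22461 gene IDs at 10 or more counts, against 17152 to 18667 in the other libraries, and the calls and log2 fold changes below were recomputed without it. The levels, the counts of groups that do not overlap and the nearest profiles rest on all 4 libraries. All 10 ILC2 markers looked at were present, with summed levels of 3145 to 3398 CPM (counts scaled to a common library total) in controls and 3224 to 3954 CPM in FK866. Markers of B and plasma cells summed to 0.330 to 0.583 CPM in controls and 1.04 to 2.32 CPM in FK866, those of myeloid cells to 1.68 to 2.91 and 4.65 to 5.49 CPM, and those of mast cells stayed under 1 CPM. The 5 epithelial markers summed to 42.3 to 55.1 CPM in controls and 27.3 to 39.9 CPM in FK866, nearly all of it Epcam, with Krt8 at 0 in every library. The 6 T cell markers summed to 19.9 to 20.0 and 20.8 to 21.1 CPM, mostly Cd3g, and the 4 ILC3 markers to 157 to 271 and 85.9 to 228 CPM, mostly Il22. Those of NK cells and ILC1s summed to 7.02 to 8.23 and 5.45 to 7.91 CPM, and those of stroma to 1.72 to 4.68 and 3.30 to 4.44 CPM. Of all these markers, Rora and Il23r were called higher and Il13 and Arg1 lower. The part of such cells in the results was not tested. In bulk RNA, fewer cells of a type and less RNA per cell cannot be told apart.

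In FK866, 3 of the 9 enzymes rose: asparagine synthetase, mitochondrial alanine transaminase and mitochondrial PEPCK, by 2.61-fold to 3.96-fold. The other 6 did not pass the test. A gene was called at an adjusted p under 0.05 in edgeR's quasi-likelihood test with Benjamini-Hochberg adjustment over 19194 genes. All 9 enzymes passed the filter on low counts. Over all tested genes 13.2% were called, 5.31% higher and 7.89% lower. At an unadjusted p under 0.05, 3 of the 9 were higher and 1 was lower (Oat), against 12.1% and 15.9% of all genes tested. DESeq2 called 3 of the 9 higher and 0 lower, against 10.1% and 16.6% of the 11945 genes to which it gave an adjusted p. Both FK866 libraries lay above both controls for 3 of the 9 and below both for 2, as they did for 28.4% and 29.3% of all genes tested. The median log2 fold change of the 9 was 0.15, against 0.03 over all genes tested.

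**Figure D1:**
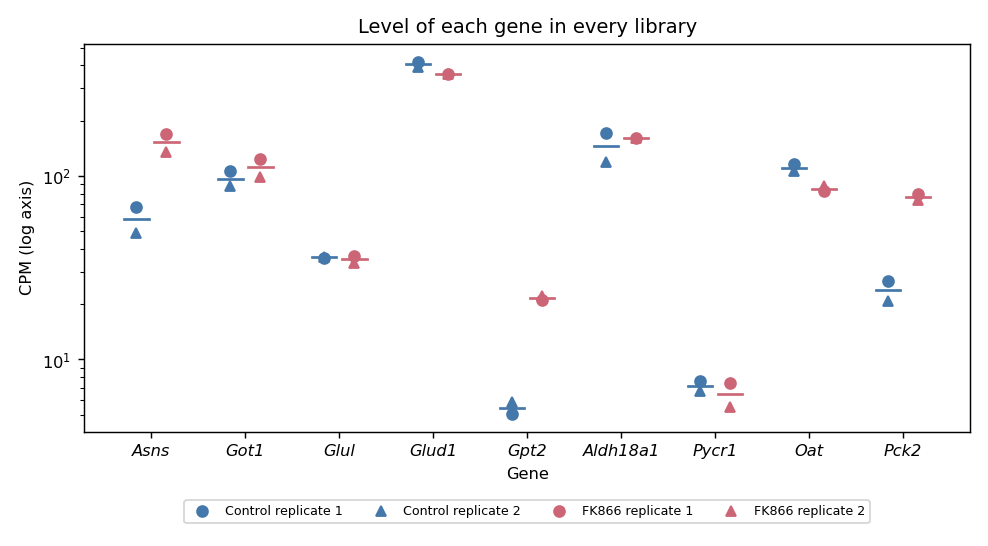
Level of each of the 9 enzymes in every library, in CPM on a log axis; circles and triangles are replicates 1 and 2, blue is control, red is FK866, and lines are group means. The FK866 libraries lie above both controls for Asns, Gpt2 and Pck2, and below both for Glud1 and Oat.

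Asparagine synthetase transfers the amide nitrogen of glutamine to aspartate and is the cell's own source of asparagine. Asns (ENSMUSG00000029752, GRCm38 chromosome 6, 7675169 to 7693254, minus strand) stood at 68.0 and 48.7 CPM in control replicates 1 and 2 and at 170.2 and 134 CPM in FK866 replicates 1 and 2. Both FK866 libraries were above both controls, and the ratio of an FK866 to a control library ran from 1.97 to 3.49. The group means were 58.4 ± 13.6 and 152 ± 25.4 CPM (SD, n = 2). The log2 fold change was 1.38 ± 0.19 (SE), with an edgeR adjusted p of 0.00437. Without FK866 replicate 1 the log2 fold change of Asns was 1.10.

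Got1, the cytosolic aspartate transaminase, interconverts aspartate and glutamate and serves the malate-aspartate shuttle. It stood at 106 and 87.7 CPM in controls and 124 and 98.5 CPM in FK866. The groups overlapped, and the log2 fold change of 0.20 had a 95% interval from -0.17 to 0.58 (edgeR adjusted p = 0.483). Its mitochondrial counterpart Got2 stood at 306 and 307 CPM in controls and 249.7 and 231 CPM in FK866. Both FK866 libraries were below both controls, without a call (log2 -0.35, adjusted p = 0.0975), and 9.0% of its exonic sequence is shared with an antisense gene. Got2 was called lower with the replicate number as a block (log2 -0.35, edgeR adjusted p = 0.00941). It was also called lower without control replicate 1 (log2 -0.45).

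Glutamine synthetase (Glul) makes glutamine from glutamate and ammonia. Its levels were 35.6 and 36.4 CPM in controls and 36.6 and 33.6 CPM in FK866, so the groups overlapped within a narrow range. The log2 fold change was -0.04, with a 95% interval from -0.40 to 0.33, and with scaling by library totals it was 0.01.

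Glutamate dehydrogenase (Glud1) releases ammonia from glutamate with NAD+ or NADP+ as acceptor. It was the most abundant of the 9, at 419.8 and 395 CPM in controls and 361 and 358 CPM in FK866. Both FK866 libraries were lower, by a log2 fold change of -0.18 (95% interval -0.45 to 0.09) that did not pass (adjusted p = 0.379).

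Gpt2 encodes the mitochondrial alanine transaminase, which passes nitrogen from glutamate to pyruvate and yields α-ketoglutarate. Gpt2 (ENSMUSG00000031700, chromosome 8, 85492576 to 85527560, plus strand) stood at 5.04 and 5.89 CPM in controls and 21.1 and 22.1 CPM in FK866. This was the steepest rise among the 9, with every FK866 library at 3.58 to 4.396 times a control. The means were 5.46 ± 0.603 and 21.6 ± 0.739 CPM (SD, n = 2), and the log2 fold change was 1.98 ± 0.22 (SE, edgeR adjusted p = 0.00191). The cytosolic counterpart Gpt had 2.39 and 3.37 CPM in controls and 2.67 and 3.88 CPM in FK866. Its groups overlapped, and its log2 fold change of 0.19 had a wide 95% interval from -0.71 to 1.08.

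The route from glutamate to proline begins with Aldh18a1, the pyrroline-5-carboxylate synthase of mitochondria. Its levels were 171 and 119 CPM in controls and 162 and 161 CPM in FK866, so both FK866 libraries lay between the controls (log2 0.15, 95% interval -0.25 to 0.55, adjusted p = 0.637). The last step is carried out by reductases, of which mitochondrial Pycr1 was scarce, at 7.597 and 6.75 CPM in controls and 7.42 and 5.53 CPM in FK866. Its groups overlapped (log2 -0.15, 95% interval -0.79 to 0.49, adjusted p = 0.797).

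Pycrl (also named Pycr3), the cytosolic reductase that takes pyrroline-5-carboxylate made from ornithine, fell from 103 and 106 CPM in controls to 31.5 and 32.97 CPM in FK866. Replicates of Pycrl lay close together in both groups, and its log2 fold change was -1.70 ± 0.14 (SE, edgeR adjusted p = 0.000769).

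Ornithine aminotransferase (Oat) moves nitrogen between ornithine and glutamate and so links proline to the products of arginase. Oat stood at 116 and 106 CPM in controls and 82.3 and 88.3 CPM in FK866. Both FK866 libraries were below both controls, with a log2 fold change of -0.38 ± 0.14 (SE) and a 95% interval from -0.69 to -0.07. It did not pass over all genes (edgeR adjusted p = 0.103), and without control replicate 2 it did (log2 -0.44, adjusted p = 0.0496).

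Pck2, mitochondrial PEPCK, turns oxaloacetate into phosphoenolpyruvate with GTP and is expressed in many cells that do not make glucose. Pck2 (ENSMUSG00000040618, chromosome 14, 55540266 to 55551242, plus strand) stood at 26.8 and 20.9 CPM in controls and 79.4 and 74.0 CPM in FK866. The FK866 libraries were 2.76 to 3.80 times the controls. The means were 23.8 ± 4.23 and 76.7 ± 3.81 CPM (SD, n = 2), with a log2 fold change of 1.68 ± 0.17 (SE, edgeR adjusted p = 0.00139). The cytosolic form, Pck1, was close to absent, at 0.148 to 0.529 CPM over the 4 libraries. An antisense gene covers 0.68% of the exon bases of Pck2, and for Glul 3.5% overlap other genes, while the other 7 enzymes share no exon base with an annotated gene.

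**Figure D2:**
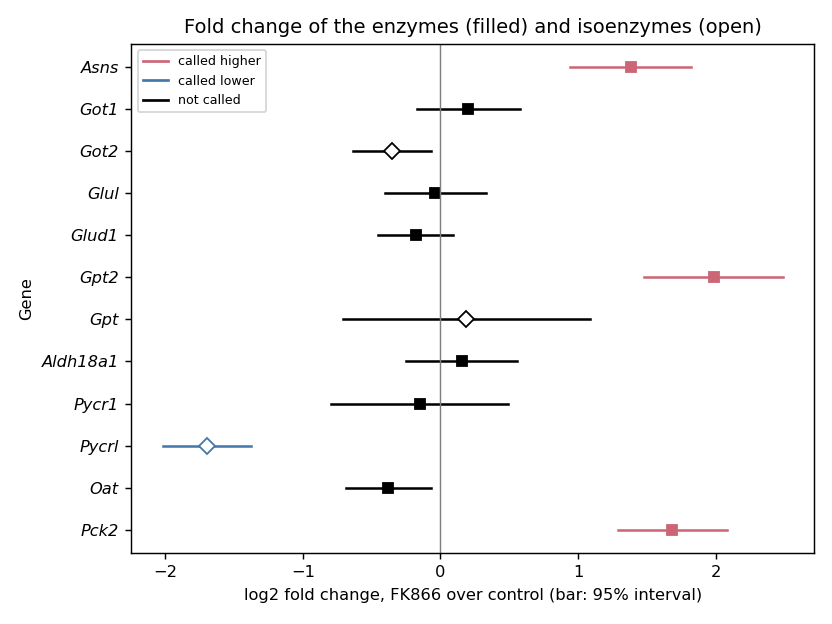
log2 fold change of FK866 over control for the 9 enzymes (filled squares) and 3 isoenzymes (open diamonds), with 95% intervals from the edgeR fit; red is called higher, blue called lower and black not called. Asns, Gpt2 and Pck2 lie between 1.38 and 1.98, and Pycrl is at -1.70.

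Levels of different genes can be compared only per transcript length, here as CPM per kilobase of the principal GENCODE transcript. In controls the order of the 9 was Glud1 (120.1 CPM per kilobase), Oat (51.6), Got1 (47.0), Aldh18a1 (41.1), Asns (28.96), Glul (12.9), Pck2 (5.16), Pycr1 (2.46) and Gpt2 (1.501). The ranges of Oat, Got1 and Aldh18a1 overlapped between neighbours, and the other neighbours did not overlap. In FK866 Asns stood next to Glud1, at 75.5 ± 12.6 CPM per kilobase (SD, n = 2) against 106 ± 0.570. Pck2, at 16.6, stood above Glul, at 12.6, and Gpt2, at 5.94, above Pycr1, at 2.22. The level of Pck2 on this scale depends on a principal transcript of 4625 nt, and shorter coding transcripts of this gene are also annotated. With a shorter length the level would be higher. Pycrl, at 78.0 CPM per kilobase in controls and 24.1 in FK866, stood above Pycr1 in both groups.

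**Figure D3:**
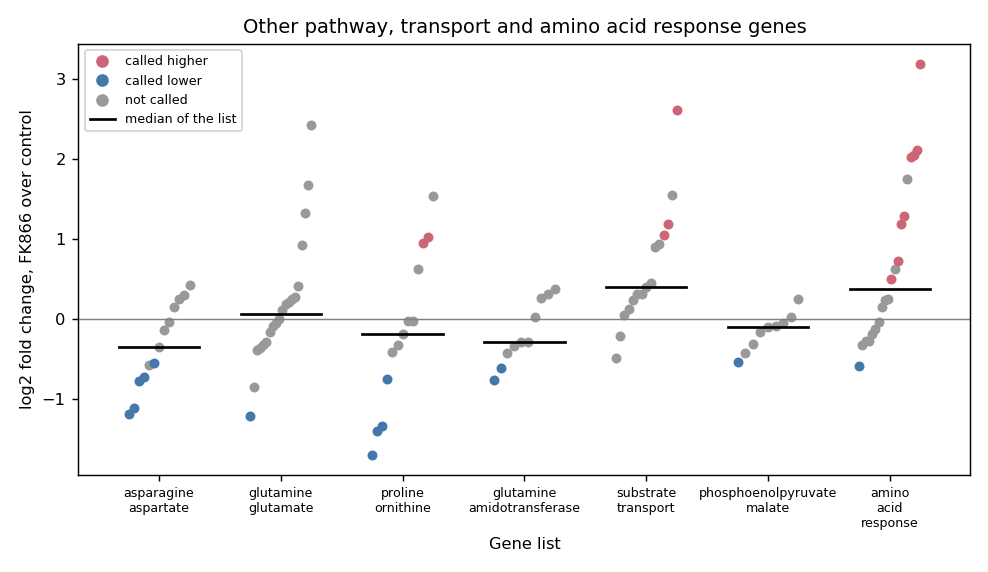
log2 fold change of each tested gene in 7 lists of related genes, with list medians as black lines; red is called higher, blue called lower and grey not called. Called genes are below 0 in the asparagine and aspartate list and above 0 in the substrate transport list, and lie on both sides in the proline and ornithine list.

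Around the 9 enzymes, 100 other tested genes of the same reactions, of substrate transport and of the amino acid response gave 13 called higher and 14 called lower, 13% and 14% of the lists against 5.31% and 7.89% of all genes. Their median log2 fold change was 0.02. Fewer were called lower without FK866 replicate 2, as were fewer of all genes. The lists were chosen with results of these data known, and their counts are a description.

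Of 13 tested genes of asparagine and aspartate metabolism, 5 fell and 8 did not pass, with a list median of -0.35. The aspartate-glutamate carrier Slc25a13 fell by 1.11 on the log2 scale. Slc25a12, another such carrier and outside the rule for named genes, was more abundant in controls (19.9 against 6.01 CPM per kilobase). Slc25a12 was not called (log2 -0.58, edgeR adjusted p = 0.0705). It was called lower by DESeq2 (adjusted p = 0.0287), with upper quartile scaling and with a stricter filter on low counts. The replicate number as a block and removal of a trend on length and GC also gave this call. So did leaving out control replicate 1, control replicate 2 or FK866 replicate 1 (log2 -0.47, -0.77 and -0.86). Argininosuccinate lyase (Asl) fell by 0.77, and adenylosuccinate lyase (Adsl) by 0.72. The enzymes that join aspartate on just before these lyases, Ass1 (log2 0.25) and Adss (0.15), were not called and lie outside the rule for named genes. The cytosolic aspartyl-tRNA synthetase Dars, which lies outside the rule for named genes, fell by 0.55 (edgeR adjusted p = 0.0273). Dars was not called with no filter on low counts (adjusted p = 0.0792) or with a trend on length and GC taken out (adjusted p = 0.117). Dars and Adsl were not called without FK866 replicate 2 (log2 -0.44 and -0.61), where fewer of all genes were called lower.

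In the list of glutamine and glutamate, 1 of 20 tested genes passed and was lower (5%, against 7.89% of all genes tested). It was Kyat3, a kynurenine and glutamine transaminase, which fell from 54.4 ± 9.09 to 23.5 ± 2.43 CPM (SD, n = 2; log2 -1.21, edgeR adjusted p = 0.00587). More of this list were called lower without control replicate 1, control replicate 2 or FK866 replicate 1, as were more of all genes. Without control replicate 1, more of the list and of all genes were also called higher. Of 10 enzymes that take the amide nitrogen of glutamine, 2 fell, both of purine synthesis: Ppat (log2 -0.61) and Pfas (-0.76). Neither was called without FK866 replicate 2 (log2 -0.47 and -0.51). When control replicate 1 or control replicate 2 was left out, more of this list and more of all genes were called lower.

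The branch of proline and ornithine moved in both directions, with 4 of 13 tested genes lower and 2 higher. With scaling by library totals 3 were called lower, and with the replicate number as a block 6 were. The 4 lower genes include Slc25a15, outside the rule for named genes (log2 -0.75, edgeR adjusted p = 0.0363). Slc25a15 was not called with scaling by library totals (edgeR adjusted p = 0.0524). Its call was also lost without control replicate 2, FK866 replicate 1 or FK866 replicate 2 (log2 -0.67, -0.73 and -0.85). Beside Pycrl, proline dehydrogenase (Prodh), which opens proline breakdown, fell from 27.9 ± 2.61 to 10.6 ± 0.754 CPM (SD, n = 2; log2 -1.40). Arginase 1 (Arg1), which makes ornithine from arginine, fell from 89.9 ± 18.0 to 35.7 ± 6.21 CPM (log2 -1.33). Ornithine decarboxylase (Odc1), which draws ornithine into polyamines, rose from 528 ± 25.7 to 1022 ± 79.9 CPM (log2 0.95). These 3 calls held without each library in turn.

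Of 15 tested transporters of these amino acids, 3 rose. Slc3a2, the heavy chain of several amino acid exchangers, rose from 255 ± 45.0 to 583 ± 49.4 CPM (SD, n = 2; log2 1.19). Slc38a7, a lysosomal carrier of glutamine and asparagine, rose from 27.2 ± 2.02 to 56.4 ± 9.17 CPM (log2 1.05). Slc7a11, the cystine-glutamate exchanger, went from 0.302 ± 0.0795 to 1.86 ± 0.693 CPM, but was not called when FK866 replicate 2 was left out (adjusted p = 0.197) and when a trend on length and GC was taken out (adjusted p = 0.0581). The abundant glutamine carrier Slc1a5 stood at 491 and 379.6 CPM in controls and 336 and 287 CPM in FK866 without a call (adjusted p = 0.079), a gene outside the rule for named genes. Slc1a5 was called lower by DESeq2 (adjusted p = 0.0418), with the replicate number as a block (0.000219), without control replicate 2 (0.000162) and without FK866 replicate 1 (0.0108). More transporters were called higher without control replicate 1, as were more of all genes.

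Around Pck2, 1 of 9 tested genes of phosphoenolpyruvate and malate passed, the mitochondrial malic enzyme Me2, which fell by 0.53 on the log2 scale. Me2 was not called when FK866 replicate 2 was left out (log2 -0.44) or with no filter on low counts (edgeR adjusted p = 0.0942). More of this list were called lower without control replicate 2 or FK866 replicate 1, as were more of all genes.

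In the list of the amino acid response, which holds the sensors, transcription factors and other targets of the ATF4 route, 8 of 20 tested genes rose and 1 fell. Atf4 itself, named here outside the rule, stood at 207 and 202 CPM in controls and 314 and 263 CPM in FK866 (log2 0.50 ± 0.14 (SE), adjusted p = 0.0458). Atf4 was not called with FK866 replicate 1 left out (adjusted p = 0.523) or with no filter on low counts (adjusted p = 0.281). Atf3, a transcription factor induced by ATF4, rose from 4.74 ± 0.0679 to 20.5 ± 5.24 CPM (SD, n = 2; log2 2.11). Ddit3, which encodes CHOP, rose by 1.29, the pseudokinase gene Trib3 by 2.05 and the mitochondrial folate enzyme Mthfd2 by 0.73 on the log2 scale. The value of Trib3 ran from 1.501 without control replicate 2 to 2.86 without control replicate 1. With FK866 replicate 1 left out, Mthfd2 was not called (log2 0.54), and fewer of the list and of all genes were called higher. The gene that fell was Psph, of serine synthesis (log2 -0.59, adjusted p = 0.0499), a gene outside the rule for named genes. Psph was not called under 9 of 12 alternatives, where its adjusted p ran up to 0.136, among them leaving out control replicate 2, FK866 replicate 1 or FK866 replicate 2. More of the list were called lower without control replicate 1, as were more of all genes.

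The genes with the profile nearest to each of the 3 that rose were found among 8500 protein-coding genes, by the Euclidean distance of centred log2 CPM over the 4 libraries. For Asns these were Nfil3 (distance 0.09) and Bmp2k (0.11), for Gpt2 Clk4 (0.08) and Clk1 (0.15), and for Pck2 Zfp36l2 (0.09) and Cdon (0.09). All 6 rose, by 1.34 to 2.08 on the log2 scale. This follows from the choice, because they were picked for closeness to genes that rose in the same 4 libraries.

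**Figure D4:**
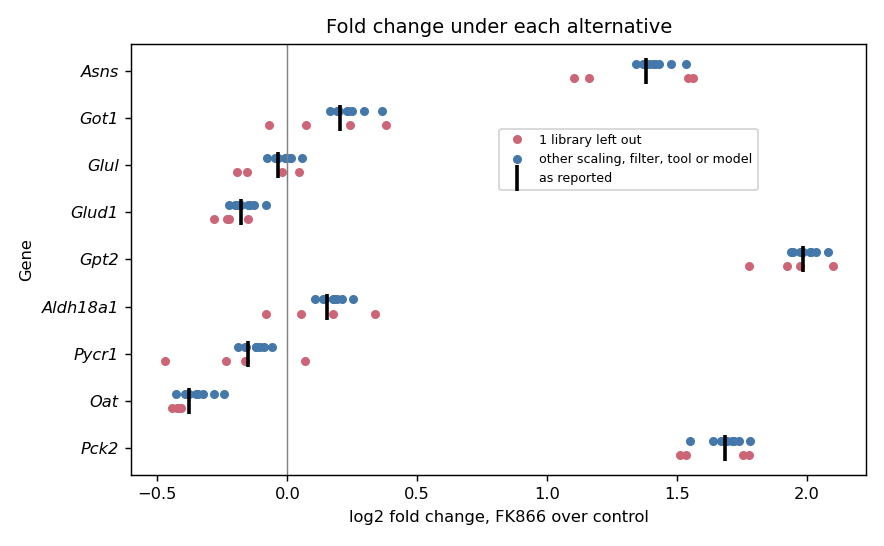
log2 fold change of the 9 enzymes as reported (black bars), with 1 library left out (red) and with another scaling, filter, tool or model (blue). Asns, Gpt2 and Pck2 stay above 1.10 in every case, Glud1 and Oat below 0, and Got1, Glul, Aldh18a1 and Pycr1 have values on both sides of 0.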

How the data were processed

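RNA was sequenced from 2 control and 2 FK866 samples. Per the labels' protocols, TRIzol was used for the RNA, the SMART-Seq HT kit for cDNA and the Nextera XT kit for paired-end libraries. The authors deposited raw read counts per Ensembl gene ID, a unit read from the whole-number values. The submitters' processing notes list cutadapt 1.9, HISAT2 2.2.1 and the build mm10. For the counting program, its annotation, its strand setting and multiply matching reads, the entry is "not given in the sources used here". Groups and replicate numbers came from the sample titles. Names, positions and lengths came from GENCODE M21 (GRCm38), which named 55227 of 55487 IDs. The 260 others held at most 0.0494% of a library's counts.

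The counts went into edgeR 4.0.16 (R 4.3.3): a quasi-likelihood F test, two-sided, with treatment as the only term and TMM scaling after filtering. filterByExpr was set to a minimum count of 10 with a total of at least 15, and 19194 genes passed. CPM uses these scaled totals. Each SE was taken as |log2 fold change| over √F. The procedure was tested on simulated counts. It recovered 73 of 100 changes of 2-fold and 98 of 100 of 4-fold, with 6 false calls among 177. Replicates differed by more than sampling noise (chi-square per degree of freedom 33.4 between controls and 18.7 between FK866 libraries).

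The members, the 7 gene lists and the tests were chosen with earlier results of these data known. The rule for named genes took the 9 members, up to 4 called genes with the smallest adjusted p from each list, direct isoenzymes of members (Got2, Gpt, Pck1 and Pycrl among them), and the 2 nearest profiles of each called member among protein-coding genes of log2 CPM 3 or more on average. Alternatives were scaling by library totals, RLE or upper quartile, DESeq2 1.42.0, no filter, a stricter filter (log2 CPM of 2 or more on average), a replicate block, removal of a length and GC trend (mgcv 1.9.3), and leaving out each library, where the lone library of an arm is assumed to vary like the other group. Some genes taken by this rule are not reported here.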

Additional observations from a re-analysis of the deposited data

How the results depend on the processing

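The calls of Asns, Gpt2 and Pck2 held under all 12 alternatives, with log2 fold changes of 1.10 to 1.56, 1.78 to 2.10 and 1.51 to 1.78, so 3 members were called higher in each. The count of members called lower, 0 as reported, ran from 0 to 1 as each library was left out, and was 1 with the replicate block, Oat in both cases. Over all genes, 1020 were called higher and 1514 lower. Leaving out 1 library gave 661 to 1457 higher and 828 to 2462 lower, and the stricter filter gave 1758 higher. Of the other pathway genes, 7 to 20 were called lower as each library was left out. The labels do not say that replicate numbers pair the samples, and the replicate 1 minus replicate 2 differences of the 2 groups correlated at 0.23 across genes. With the replicate block, 2197 genes were called higher and 3059 lower, and 28 of the other pathway genes lower. Of 108 recomputed member values, 106 kept their side of the threshold and 2 crossed it, both for Oat. No value of a gene past the threshold changed sign. With 2 libraries per group, members that were not called are not shown to be unchanged.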
